A study of Mus musculus with 6 samples.

Results

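The Hedgehog genes described here were chosen by symbol from the deposited colon expression table. They were the ligand genes *Ihh* and *Shh*, the decoy receptor gene *Hhip*, the receptor gene *Ptch1*, the signal transducer gene *Smo*, the transcription factor genes *Gli1*, *Gli2* and *Gli3* and the inhibitor gene *Sufu*, 9 of the 17778 genes in the table. They were selected with their values in the comparison below already known. Their differences between the groups are therefore given as a description, without a test.

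RNA was sequenced from the colon of male wild-type C57BL/6J mice fed a high-fat diet (60% fat) for 16 weeks, when they were 21 weeks old. Strain, genotype, diet and age were the same in both groups. From 42 mice on the diet, the study named the 10 with the greatest weight gain obesity-prone (OP) and the 10 with the least obesity-resistant (OR), and 3 mice of each were sequenced, 1 library per mouse. The groups were thus defined by an outcome within 1 inbred strain on 1 diet, with no genetic or drug treatment between them, and mice on a control diet were not analysed here.

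Hedgehog signalling passes mostly from one cell type to another in the gut. Epithelial cells release the ligands Indian hedgehog and Sonic hedgehog, which bind Patched on fibroblasts and smooth muscle cells of the wall. Bound Patched no longer holds back Smoothened, so that Gli proteins, otherwise restrained by Sufu and partly cut into repressors, switch on target genes. *Ptch1*, *Gli1* and *Hhip* are themselves targets of the pathway, and the Hhip protein holds ligand at the cell surface and so limits the signal.

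Expression is given in FPKM, read fragments scaled to transcript length and to the size of the library, so levels of different genes can be compared per length. The 6 libraries summed to 585350 to 600028 FPKM over the listed genes, with 16287 to 16619 genes above 0, and the read depth behind them is unknown. OP mouse 1 stood apart, with a median of 3.55 FPKM over all listed genes against 4.895 to 5.76 in the other 5 mice. Across the 13520 genes that reached 0.5 FPKM in at least 3 mice, 70.1% had a lower mean in OP, with a median log2 fold change of −0.10. After median-of-ratios scaling, which sets libraries level by the median gene, that median was 0.01. Fold changes are OP minus OR on the log2(FPKM + 1) scale with the standard error (SE) of the fit across all genes. This scale understates the change of genes near or below 1 FPKM.

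The clearest separation among the 9 genes was in *Hhip*. Its level was 0.15, 0.13 and 0.55 FPKM in OP mice 1, 2 and 3, and 2.09, 1.89 and 1.66 FPKM in OR mice 1, 2 and 3. Every OP mouse was below every OR mouse. The group means were 0.277 ± 0.237 and 1.88 ± 0.215 FPKM (SD, n = 3 each), a ratio of OR to OP of 6.80. On the log2(FPKM + 1) scale the difference was −1.19 (SE 0.19), the 60th lowest of the 13520 genes. *Hhip* also kept its groups apart after rescaling to TPM, which brings the length-scaled levels of each mouse to the same total, and after median-of-ratios scaling, where the difference was −1.14. In OP mouse 3 *Hhip* stood well above the other OP mice, and 1 OP mouse and 3 OR mice reached the level of 0.5 FPKM that the filter asked for. In whole tissue, fewer cells of a type and less RNA per cell cannot be told apart, and this holds for each gene below.

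The sequence before the *Hhip* start site is shown because *Hhip* is a known target of Gli proteins and was the gene whose groups lay furthest apart. It covers the 250 bases upstream of the RefSeq start on the minus strand of GRCm38.p6, chr8:80058009-80058258. Capitals mark the closest match to the Gli motif GACCACCCA, searched on both strands (reverse complement TGGGTGGTC).

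Hhip: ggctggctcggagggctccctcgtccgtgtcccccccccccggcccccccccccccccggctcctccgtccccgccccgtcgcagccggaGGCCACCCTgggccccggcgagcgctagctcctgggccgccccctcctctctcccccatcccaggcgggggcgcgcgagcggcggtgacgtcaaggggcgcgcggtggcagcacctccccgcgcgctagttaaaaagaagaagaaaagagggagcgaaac

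The marked stretch shared 7 of the 9 letters of the motif and began 160 bases before the start site. A match of 7 or more letters was present in 51.8% of the 32851 mouse promoter windows, so it does not set *Hhip* apart. The exact motif was in 0.253% of all windows of 300 bases, from 250 before to 50 after a start site, in 0 of the 7 windows found for the 9 genes and in 0 of the 9 windows found for 8 of 14 listed target genes. *Ihh*, *Gli2* and *Smo* also reached 7 letters, and *Gli3*, *Ptch1* and *Sufu* reached 6. The count of matching letters is a description of these windows and not evidence of binding.

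The ligand genes did not separate the groups. *Ihh*, the main Hedgehog ligand gene of colonic epithelium, was measured at 57.05, 44.32 and 51.61 FPKM in OP and 49.78, 56.29 and 49.03 FPKM in OR. The means were 51.0 ± 6.39 and 51.7 ± 3.99 FPKM (SD, n = 3 each), with a log2 fold change of −0.02 (SE 0.14). The ranges of *Ihh* overlapped, and the 6 mice were within a narrow band for this gene.

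*Shh*, the other ligand gene, was far lower and varied more between mice than between groups. Its values were 0.12, 1.37 and 2.24 FPKM in OP and 0.72, 0.59 and 2.15 FPKM in OR. OP mouse 3 and OR mouse 3 had the highest levels and OP mouse 1 the lowest. The means were 1.24 ± 1.07 and 1.15 ± 0.866 FPKM (SD, n = 3 each), with a log2 fold change of −0.0008 (SE 0.43). The ratio of *Ihh* to *Shh* per length ran from 22.8 in OR mouse 3 to 475 in OP mouse 1, and most of that span came from *Shh*. In the annotation, *Shh* exons overlap the opposite-strand genes *9530036O11Rik* and *Gm26894*.

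*Ptch1*, which encodes the receptor and is also a pathway target, overlapped between the groups. It was at 3.98, 3.32 and 8.88 FPKM in OP and 6.99, 6.42 and 4.27 FPKM in OR. OP mouse 3 had the highest level of the 6 mice and OR mouse 3 was near the lower OP mice. The means were 5.39 ± 3.04 and 5.89 ± 1.43 FPKM (SD, n = 3 each), with a log2 fold change of −0.19 (SE 0.34). Single mice set that value: it was −0.55 (SE 0.25) without OP mouse 3, when both other OP mice lay below every OR mouse, and 0.05 without OP mouse 2.

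*Smo* encodes the membrane protein that passes the signal inward. It was at 3.63, 9.97 and 8.91 FPKM in OP and 11.85, 8.46 and 11.04 FPKM in OR. The lower OP mean, 7.50 ± 3.40 FPKM against 10.45 ± 1.77 FPKM (SD, n = 3 each), rested largely on OP mouse 1. The other OP mice were within the OR range. The log2 fold change was −0.51 (SE 0.34), and −0.12 when OP mouse 1 was left out.

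Among the Gli genes, *Gli1* and *Gli3* were lower in each OP mouse than in each OR mouse, and *Gli2* was not. *Gli1*, a pathway target whose protein activates transcription, was at 1.05, 1.76 and 2.38 FPKM in OP and 2.41, 2.63 and 3.42 FPKM in OR. Its highest OP value and lowest OR value differed by little, and after median-of-ratios scaling they overlapped. The means were 1.73 ± 0.666 and 2.82 ± 0.531 FPKM (SD, n = 3 each), an OR to OP ratio of 1.63 and a log2 fold change of −0.51 (SE 0.24). After median-of-ratios scaling the log2 fold change of *Gli1* was −0.42. *Gli1* exons overlap those of *Arhgap9* and *Gm47200* in the annotation. Exons of *Hhip* overlap the opposite-strand gene *Gm27820*, and those of *Gli3* the opposite-strand gene *Gm6556*. The library kept strand, but whether the counting used it is not given in the sources used here.

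*Gli3*, whose protein is in large part cut to a repressor, was at 0.38, 0.40 and 0.45 FPKM in OP and 0.68, 0.62 and 0.61 FPKM in OR. The groups did not overlap under any of the 3 scalings tried. The means were 0.410 ± 0.0361 and 0.637 ± 0.0379 FPKM (SD, n = 3 each), an OR to OP ratio of 1.55 and a log2 fold change of −0.22 (SE 0.14). *Gli3* reached the filter level in OR mice alone, and values this low may rest on few reads.

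*Gli2*, which encodes the main activator among the Gli proteins, was at 0.51, 0.50 and 0.59 FPKM in OP and 0.60, 0.45 and 0.59 FPKM in OR. Its means, 0.533 ± 0.0493 and 0.547 ± 0.0839 FPKM (SD, n = 3 each), were almost the same, with a log2 fold change of −0.01 (SE 0.14). *Sufu*, whose protein restrains the Gli proteins in the cytoplasm, was at 3.27, 3.69 and 5.04 FPKM in OP and 5.28, 4.23 and 4.31 FPKM in OR. The groups overlapped, with means of 4.0 ± 0.925 and 4.61 ± 0.584 FPKM (SD, n = 3 each) and a log2 fold change of −0.18 (SE 0.20).

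**Figure D1:**
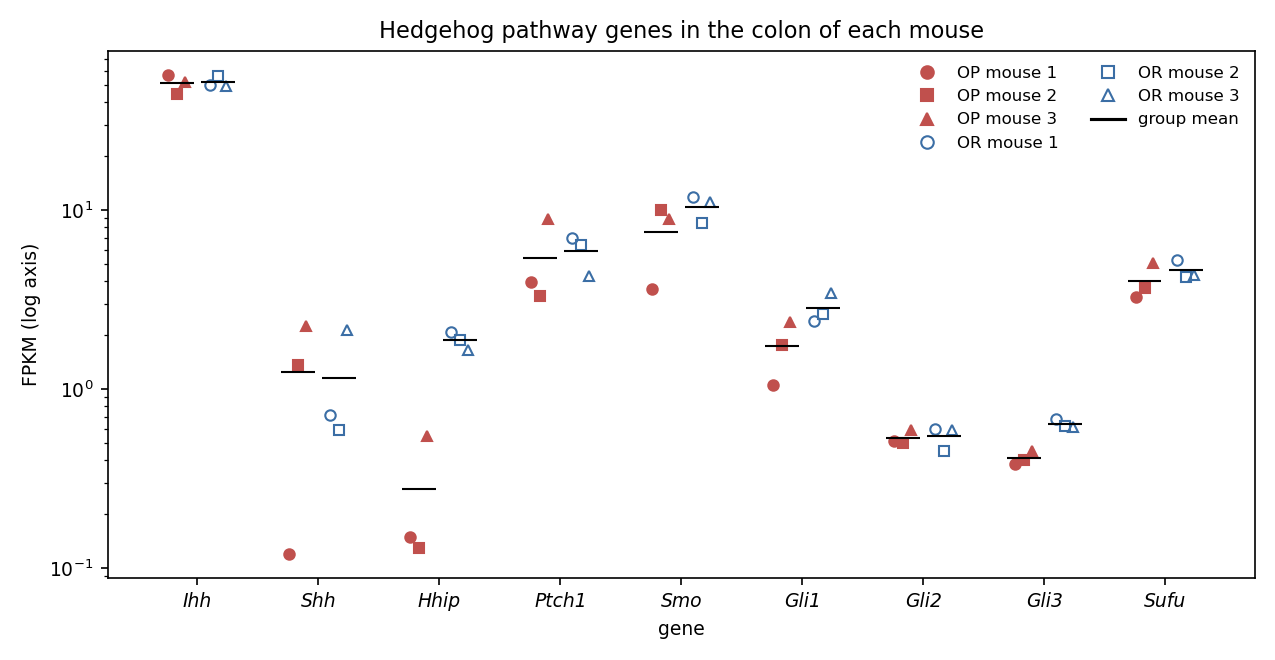
FPKM of the 9 Hedgehog genes on a log axis, with 1 symbol per mouse (filled red, OP; open blue, OR) and a black bar at each group mean. *Hhip* shows the widest gap between the groups, with all 3 OP mice at or below 0.55 FPKM and all 3 OR mice at or above 1.66 FPKM.

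Of the 9 genes, 3 (*Hhip*, *Gli1* and *Gli3*) had OP values that all lay below the OR values, 0 had the opposite pattern and 6 overlapped. Among all genes tested, 8.44% did not overlap, 6.81% being lower in OP and 1.63% higher. Because the 9 genes were chosen from this contrast, nothing is read from that count. All 9 log2 fold changes were below 0, where 70.1% of all genes were, and their median was −0.19. *Shh* (−0.0008, with the higher mean FPKM in OP), *Gli2* (−0.01) and *Ihh* (−0.02) were below 0 by far less than their SE. After median-of-ratios scaling 6 of the 9 were below 0 and their median was −0.07, with *Ihh* at 0.11, *Shh* at 0.02 and *Gli2* at 0.04.

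The order of the genes by level was led by the ligand. Scaled to TPM, *Ihh* was at 86.3 ± 7.48 over the 6 mice (SD), followed by *Smo* at 15.1 ± 4.95, *Ptch1* at 9.48 ± 3.57, *Sufu* at 7.23 ± 1.3, *Gli1* at 3.82 ± 1.34, *Shh* at 2.01 ± 1.45, *Hhip* at 1.81 ± 1.52, *Gli2* at 0.908 ± 0.103 and *Gli3* at 0.880 ± 0.217. *Ihh* was above *Smo* in 6 of 6 mice and their ranges did not overlap. The ranges of every other pair of neighbours overlapped, although *Sufu* was above *Gli1*, and *Gli1* above *Shh*, in 6 of 6 mice. At the lower end the order differed between the groups. *Hhip* was below *Gli2* in 3 of 3 OP mice and above it in 3 of 3 OR mice, and *Gli2* was above *Gli3* in 3 of 3 OP mice and below it in 3 of 3 OR mice. Both switches restate the *Hhip* and *Gli3* differences known when the genes were chosen. *Gli2* and *Gli3* were also low and close, at 0.59 and 0.61 FPKM in OR mouse 3. *Shh* was above *Hhip* in 2 OP mice and 1 OR mouse. *Hhip* ranked from 6 to 9 among the 9 genes depending on the mouse.

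Set against other pathway targets in the same mouse, *Hhip* was again lower in OP. The ratio of *Hhip* to *Ptch1* per length was 0.0377, 0.0392 and 0.0619 in OP and 0.299, 0.294 and 0.389 in OR. The ratio of *Hhip* to *Gli1* was 0.143, 0.0739 and 0.231 in OP and 0.867, 0.719 and 0.485 in OR. Both ratios separated the groups, and both share the *Hhip* values that chose the gene. The ratio of *Gli1* to *Ptch1*, in which *Hhip* has no part, overlapped, at 0.264, 0.530 and 0.268 in OP and 0.345, 0.410 and 0.801 in OR.

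A list of 61 further Hedgehog pathway genes was examined by role, and 51 of them passed the filter. The other 10 did not exceed 0.73 FPKM in any mouse. Of the 51, 40 were lower and 11 higher in mean log2 level in OP, and their median log2 fold change of −0.14 lay near the −0.10 of all genes. Among all genes tested 70.1% were lower in OP, and the counts of each role below stand beside that share. The share was not computed after median-of-ratios scaling. By limma-trend, 0 of the 51 passed a q-value below 0.2 (smallest q = 0.945), and at an unadjusted p below 0.05 there were 2 lower and 0 higher in OP. For all genes tested, 3 (0.0222%) were lower and 0 higher in OP at a q-value below 0.2 with the fold threshold, and 3.53% were lower and 0.503% higher at the unadjusted threshold. After median-of-ratios scaling the median of the 51 was −0.06, against 0.01 for all genes, and among the genes named below *Boc*, *Mgrn1* and *Prkaca* changed sign.

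Target genes had the lowest median among the roles, −0.36. Of 13 tested, 11 were lower in OP, where 70.1% of all genes were (also 11 after median-of-ratios scaling). *Ccnd2*, encoding cyclin D2, which drives cells into the cell cycle, was at 11.88, 32.11 and 15.89 FPKM in OP and 37.13, 34.91 and 36.13 FPKM in OR. The OR mice lay close together and above every OP mouse, with a log2 fold change of −0.94 (SE 0.32, limma adjusted p = 0.945). *Ccnd2* passed the unadjusted threshold, but not when OP mouse 1 (log2 fold change −0.65), OP mouse 3 (−0.84) or OR mouse 1 (−0.92) was left out. *Nkx2-3*, a homeobox gene of the gut mesenchyme, was at 3.21, 2.82 and 6.64 FPKM in OP and 7.91, 6.28 and 7.75 FPKM in OR.

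In *Nkx2-3* OP mouse 3 lay inside the OR range, and the log2 fold change was −0.74 (SE 0.29, limma adjusted p = 0.945). It passed the unadjusted threshold, but not when OP mouse 1 (log2 fold change −0.62), OP mouse 2 (−0.55), OR mouse 1 (−0.68) or OR mouse 3 (−0.70) was left out. *Bmp5*, a bone morphogenetic protein gene of the mesenchyme, had a log2 fold change of −0.77 (SE 0.45). *Bmp2* and *Mycn* had the highest values of the role, at 0.35 (SE 0.37) and 0.26 (SE 0.29). Neither *Bmp5*, *Bmp2* nor *Mycn* passed the unadjusted threshold.

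The list for ligand production and release centred at −0.25 on the log2 scale, with 7 of 7 tested genes lower in OP under both scalings and 0 past the unadjusted threshold. It also held genes of ligand binding and of heparan sulfate, and its lowest values, *Gpc3* and *Sulf2*, were of that kind. *Gpc3*, encoding a glypican that binds Hedgehog ligand, was the lowest at −0.74 (SE 0.32), with means of 3.71 ± 1.76 FPKM in OP and 6.65 ± 1.92 FPKM in OR (SD, n = 3 each). *Sulf2*, which encodes a sulfatase acting on heparan sulfate, was at −0.51 (SE 0.31). *Sulf1* at −0.14 and *Hhat*, which encodes the enzyme that attaches palmitate to the ligands, at −0.08 were closest to 0 in this role.

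Among receptors and co-receptors, 6 of 6 tested genes were lower in OP (4 after median-of-ratios scaling), with a median of −0.21 and 0 past the unadjusted threshold. *Gas1*, encoding a co-receptor for the ligands, was at 5.67, 5.98 and 5.73 FPKM in OP and 10.09, 6.61 and 8.39 FPKM in OR. These groups did not overlap as deposited but did after median-of-ratios scaling, and the log2 fold change was −0.45 (SE 0.19). *Mosmo*, a modulator of Smoothened, was at −0.22 and *Mgrn1*, which encodes a ubiquitin ligase, at −0.04. The co-receptor gene *Boc* had the widest spread of the role, from 2.70 to 16.70 FPKM within OP, and a log2 fold change of 0.00 (SE 0.60).

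The genes of the Smoothened relay and primary cilium centred near the median of all genes, at −0.09 over 13 tested genes, with 10 lower and 3 higher in OP (6 lower after median-of-ratios scaling). *Evc*, whose product sits at the base of the cilium and binds Smoothened, was at 1.51 ± 0.0577 FPKM in OP and 2.26 ± 0.423 FPKM in OR (SD, n = 3 each), with no overlap and a log2 fold change of −0.37 (SE 0.18). *Efcab7*, encoding a partner of the Evc complex, went the other way, at 0.747 ± 0.0643 and 0.50 ± 0.236 FPKM (SD, n = 3 each), with a log2 fold change of 0.23 (SE 0.17). Both *Evc* and *Efcab7* overlapped after median-of-ratios scaling. *Arrb2*, a beta-arrestin gene, was at −0.35 and *Kif3b*, a gene of the ciliary kinesin motor, at 0.04.

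The genes of Gli processing and degradation were evenly divided, with 6 lower and 6 higher in OP and a median of 0.01, where 70.1% of all genes were lower. After median-of-ratios scaling 1 was lower and the median was 0.14. *Btrc*, encoding a ubiquitin ligase subunit that marks Gli proteins, was at −0.18 and *Prkaca*, a protein kinase A gene, at −0.09. *Prkacb*, the gene of another protein kinase A subunit, was at 0.29 (SE 0.39), with OP mouse 2 highest at 32.38 FPKM. *Numb*, which encodes an adaptor for Gli1 degradation, was at 0.15. None of the genes in this role or in the cilium role passed the unadjusted threshold.

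**Figure D2:**
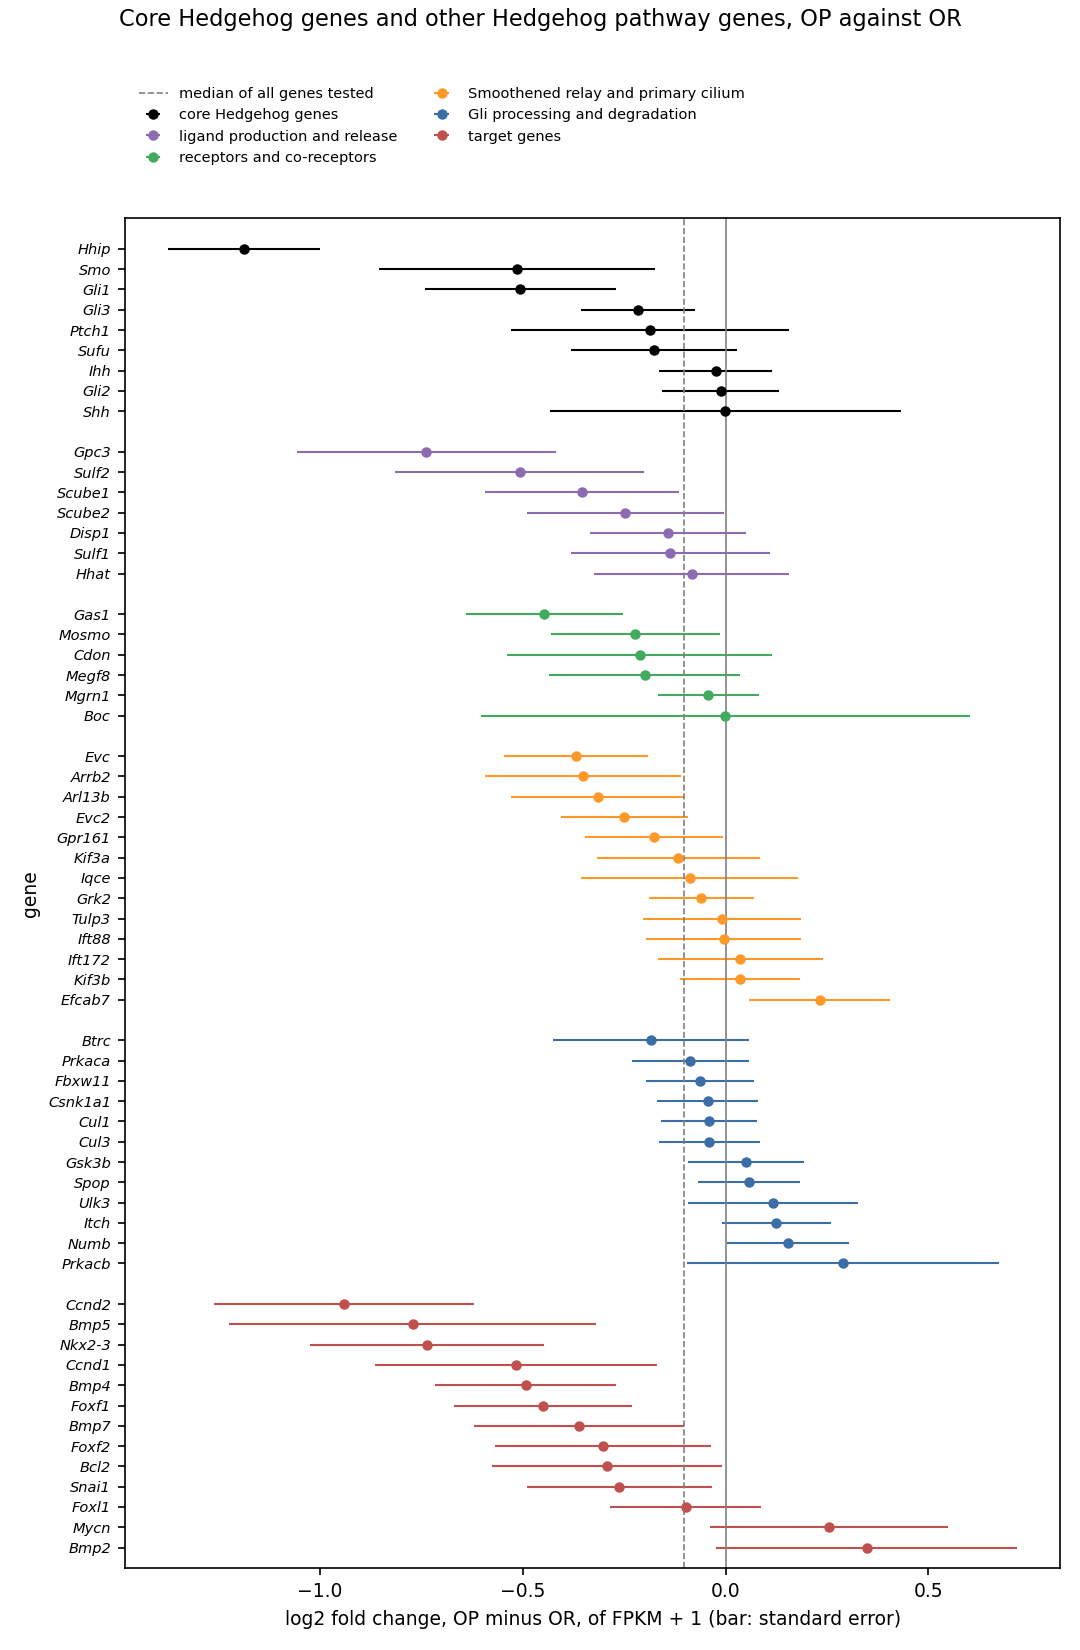
Log2 fold change (OP minus OR, of FPKM + 1) of the 9 core Hedgehog genes and the 51 tested pathway genes grouped by role, with bars of 1 standard error and a dashed line at the median of all genes, −0.10. *Hhip* lies furthest left at −1.19, and *Bmp2* furthest right at 0.35.

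Markers of the cell types that make and receive the signal were measured in the same libraries. The 12 epithelial markers, from the ligand-producing layer, showed no difference past the threshold. Of 12 tested, 0 passed an unadjusted limma p below 0.05, their median log2 fold change was 0.07, and their summed level ran from 11432 to 14839 FPKM in OP and 11341.1 to 14126.1 FPKM in OR. Mesenchymal stroma markers, from the receiving cells, were lower in OP as a list. Of 11 tested, 11 had log2 fold changes below 0, where 70.1% of all genes were, with a median of −0.61. By limma, 7 passed an unadjusted p below 0.05 (5 after median-of-ratios scaling). *Pdgfra* (log2 fold change −0.59), *Pdgfrb* (−0.28), *Thy1* (−0.61) and *Twist1* (−0.18) did not pass, and their groups overlapped. Those that passed were matrix genes and *Vim*. The sum of the 12 stroma markers was 136.42 to 218.85 FPKM in OP and 301.61 to 453.27 FPKM in OR, without overlap, and none was at 0 in any mouse.

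Among the stroma markers tested, the largest log2 fold change, −2.03, was that of *Dcn*, which encodes the matrix proteoglycan decorin, at 27.89, 17.35 and 40.80 FPKM in OP and 81.13, 95.49 and 191.45 FPKM in OR. Other lists moved the same way as *Hhip*. Of 10 blood endothelial markers 9 were lower at an unadjusted p below 0.05 (summed level 14.76 to 24.97 FPKM in OP and 28.33 to 48.84 FPKM in OR), and of 10 macrophage markers 8 were (60.74 to 120.09 and 122.25 to 159.73 FPKM). These counts depended on single mice. The endothelial count was 1 without OR mouse 3 and 5 without OP mouse 1 or OP mouse 2, the macrophage count was 4 without OP mouse 2 or OR mouse 2 and 5 without OP mouse 1 or OR mouse 3, and the stroma count was 4 without OP mouse 1, OR mouse 1 or OR mouse 3. With at least 1 FPKM required in all 6 mice, 3 endothelial, 5 macrophage and 7 stroma markers passed. Smooth muscle, another receiving tissue, had 10 of 10 markers below 0 (7 after median-of-ratios scaling) but 0 past the threshold, and its sums overlapped at 1458.09 to 2323.71 and 1804.98 to 3322.95 FPKM. No marker on any list passed a q-value below 0.2. For all genes 70.1% had log2 fold changes below 0 and 3.53% were lower at an unadjusted p below 0.05.

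Adipocyte markers were uneven, with *Adipoq*, *Plin1*, *Lep*, *Cfd* and *Retn* at 0 in OP mouse 2 and overlapping sums of 16.39 to 75.45 and 49 to 241.26 FPKM. Lymphocyte markers were high in OP mouse 3, where they summed to 95.65 FPKM against 16.55 to 30.45 FPKM in the other mice. Sums also overlapped for enteric neurons and glia (31.77 to 65.87 FPKM in OP, 32.83 to 69.59 FPKM in OR) and for interstitial cells of Cajal (9.78 to 55.14 and 19.65 to 42.48 FPKM). The part of these cell types in the *Hhip*, *Gli1* and *Gli3* values was not tested beyond the following comparison with the stroma and epithelial markers.

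**Figure D3:**
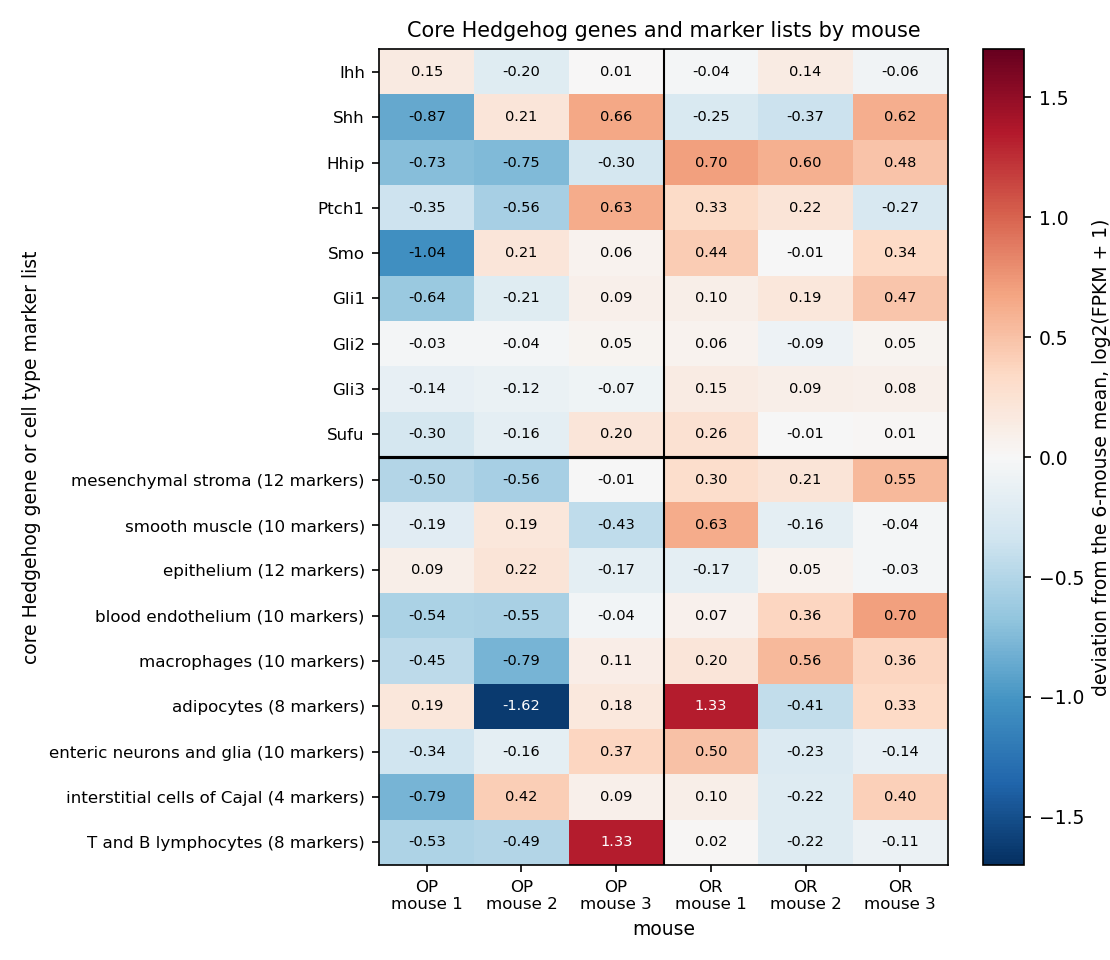
Deviation from the mean of the 6 mice, in log2(FPKM + 1), for each core Hedgehog gene (upper block) and for the mean of each cell type marker list (lower block), in each mouse. *Hhip* is below its mean in all 3 OP mice, from −0.75 to −0.30, and the stroma, endothelial and macrophage lists are lowest in OP mice 1 and 2 and near 0 in OP mouse 3.

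Expressed relative to the mean log2 level of the 12 stroma markers in the same mouse, *Hhip* was at −2.75, −2.71 and −2.80 in OP and −2.12, −2.13 and −2.59 in OR. It remained lower in every OP mouse, but the difference was −0.47, against −1.19 before. This size depended on the pseudocount, since *Hhip* was below 1 FPKM in OP: with 0.1 in place of 1, the difference relative to stroma was −1.67, against −2.56 before. *Gli1* moved from −0.51 to 0.21 and its groups overlapped. *Gli3* moved from −0.22 to 0.50 and was then higher in every OP mouse, but with the smaller pseudocount it was at 0.36 and overlapped. *Ihh*, *Gli2* and *Sufu* were also higher in every OP mouse on this scale, by 0.69, 0.70 and 0.54, while *Shh*, *Ptch1* and *Smo* overlapped. For *Gli1* and *Gli3* the direction thus depended on whether the mean of the stroma markers was the reference, and for *Hhip* it did not. The *Hhip* comparison shares the values that chose the gene, and it depends on the markers averaged. Tested stroma markers ran from −0.18 (*Twist1*) to −2.03 (*Dcn*) on the log2(FPKM + 1) scale, where *Dcn* was further below 0 than *Hhip*. As an OR to OP ratio of mean FPKM the order was reversed, at 4.28 for *Dcn* and 6.80 for *Hhip*. How much of the *Hhip* difference goes with stroma was not tested. Relative to the epithelial markers, the ligand genes *Ihh* and *Shh* differed by −0.13 and −0.10 and overlapped, and *Hhip* differed by −1.29 without overlap.

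**Figure D4:**
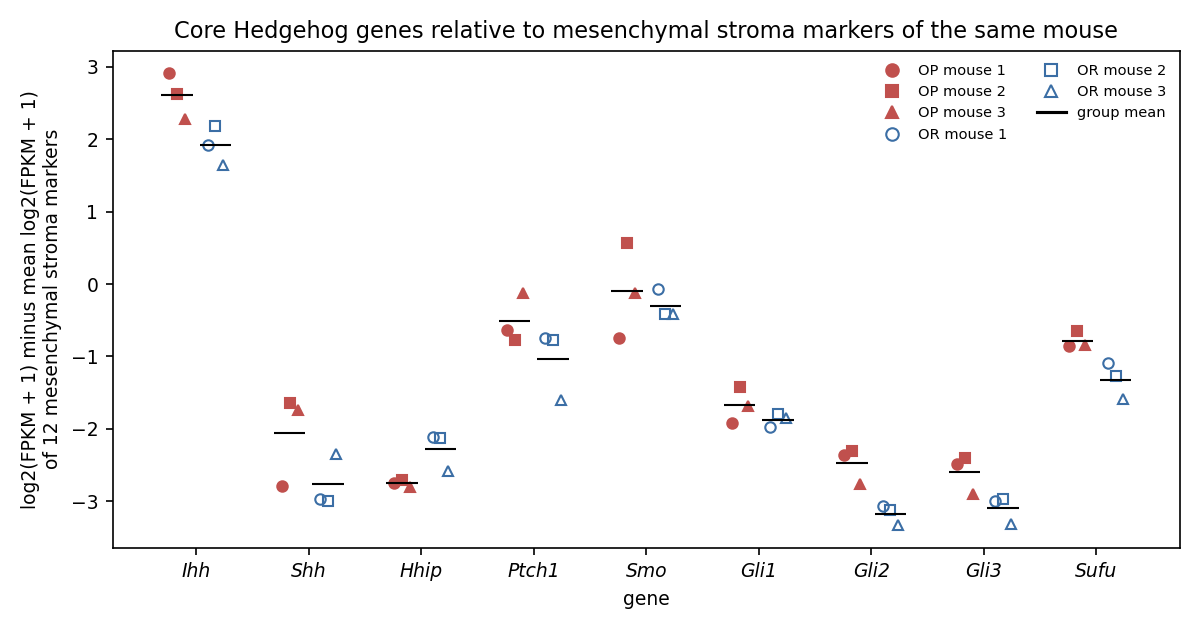
Level of each core Hedgehog gene relative to the mean of 12 mesenchymal stroma markers of the same mouse, as a difference of log2(FPKM + 1), with 1 symbol per mouse and a bar at each group mean. *Hhip* is the one gene whose 3 OP mice all lie below the OR mice on this scale, by 0.47 in the mean, and *Ihh*, *Gli2*, *Gli3* and *Sufu* lie above. The stroma mean itself differed by −0.71, OP minus OR, which raises every gene alike.

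The genes closest to *Hhip* were found by the root mean square (RMS) difference between their deviations and those of *Hhip* over the 6 mice, among 12463 genes with a mean of at least 1 FPKM. The nearest were *Fbln2* (RMS 0.139), *Galnt15* (0.160), *Cd163* (0.169), *Abca8a* (0.189), *F13a1* (0.190), *Igfbp4* (0.192), *Stab1* (0.192) and *Dlc1* (0.206), against a median RMS of 0.592 over all genes compared. *Fbln2* encodes a matrix protein of the fibulin family, and was at 1.79, 1.49 and 2.57 FPKM in OP and 5.55, 5.07 and 6.4 FPKM in OR. *Cd163*, a scavenger receptor gene of tissue macrophages and 1 of the 10 macrophage markers above, was at 0.44, 0.22 and 0.77 FPKM in OP and 1.72, 2.45 and 1.67 FPKM in OR. *Igfbp4*, which encodes a binding protein for insulin-like growth factors, was at 11.72, 10.56 and 18.40 FPKM in OP and 29.18, 23.75 and 31.90 FPKM in OR.

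All 8 nearest genes were lower in OP without overlap, as likeness to *Hhip* over 6 mice requires. Their likeness holds on the log2(FPKM + 1) scale, which understates the change of *Hhip*. As OR to OP ratios of mean FPKM they ran from 2.09 (*Igfbp4*) to 4.08 (*Cd163*), against 6.80 for *Hhip*. None of the 8 belonged to the Hedgehog genes listed here. Of the other classical targets of the pathway, *Gli1* was at rank 394 of the 12463 (RMS 0.405) and *Ptch1* at rank 4577 (RMS 0.562).

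**Figure D5:**
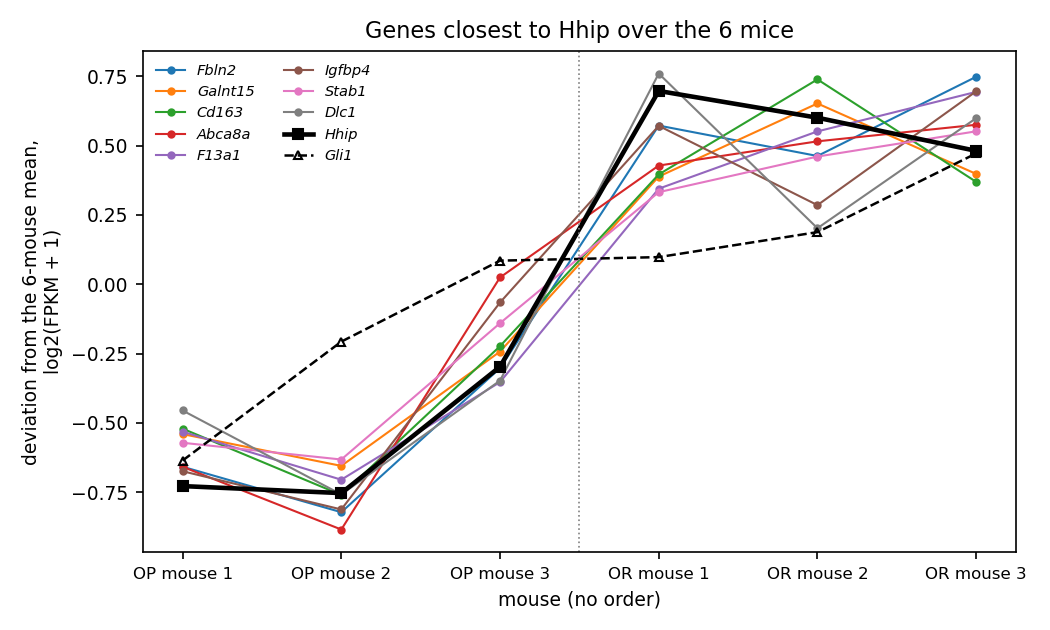
Deviation from the mean of the 6 mice, in log2(FPKM + 1), for *Hhip* (thick black), the 8 genes closest to it (coloured) and *Gli1* (dashed); mice have no order, and lines only join the values of a gene. *Gli1* is above *Hhip* in the 3 OP mice and below it in the 3 OR mice, by little in OP mouse 1 and OR mouse 3.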

How the data were processed

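Colon RNA from 3 OP and 3 OR mice was sequenced by the study after mRNA enrichment and strand-specific library preparation. The authors deposited FPKM values per gene and mouse, rounded to 2 decimals. According to the methods and labels, SOAPnuke cleaned the reads, Bowtie2 placed them on a mouse gene set and RSEM estimated the levels. The submitters' processing notes also name GRCm39, which the paper's methods give as the build of the Bowtie2 gene set. They name HISAT2 2.0.4 as well, whose role is not given there. RSEM divides reads among near-identical transcripts, so overlapping genes can share signal. The 6 columns were assigned by group and number in the labels. Replicates are separate mice.

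Genes with at least 0.5 FPKM in at least 3 mice (13520 of 17778) entered limma-trend (limma 3.58.1, R 4.3.3) on log2(FPKM + 1), without covariates, with Benjamini-Hochberg q-values over all genes tested. A gene was called at q below 0.2 where its fold was 1.2 or more, or 0.83 or less, the study's limits. DESeq2, the study's tool, needs counts and was not run. TPM was FPKM divided by its sum and multiplied by 1e+06. Other analyses used Python 3.11.15. Depth and counting error cannot be had from FPKM. Of the values above 0, 6.41% to 8.10% per mouse were below 0.1 FPKM, where rounding to 2 decimals is coarse.

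Genes named were the 9 Hedgehog genes, listed pathway genes at an unadjusted p below 0.05, the 2 highest and 2 lowest log2 fold changes per role, the 8 genes nearest *Hhip* and defining markers. The Hedgehog genes, the gene lists and the tests were chosen with earlier results of these data known. Promoter sequences were from RefSeq (GRCm38.p6), with entries for 7 of the 9 genes, and exon overlaps from GENCODE M21. Both are of the GRCm38 build, not GRCm39. The best match with mismatches to the Gli motif, the ratio of mean FPKM and the levels relative to stroma markers with a pseudocount of 0.1 were added after seeing the data. Replicate numbers were not treated as pairs in the main fit. Deviations of same-numbered OP and OR mice correlated at −0.14, −0.16 and 0.07, and those of other pairs at −0.46 to 0.54. The highest were OP mouse 1 with OR mouse 2 (0.54), OP mouse 3 with OR mouse 1 (0.42) and OP mouse 2 with OR mouse 3 (0.39). Deviations sum to 0 within each group of 3, so these values cannot exclude a shared batch.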

Additional observations from a re-analysis of the deposited data

How the results depend on the processing

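*Hhip* was lower in OP under all 17 alternatives run for it. Dropping the trend or the filter, or adding the replicate block, could not move its estimate. *Hhip* was chosen with its values known, so the count is a description only. The log2 fold change of *Hhip*, −1.19, became −1.54 as TPM and −2.56 with a pseudocount of 0.1. It was −0.47 relative to the stroma markers (−1.67 with a pseudocount of 0.1) and −2.76 as a ratio of mean FPKM. The last 2 values were added after seeing the data. Leaving out each mouse in turn gave −1.33 to −1.11. Requiring 1 FPKM in all 6 mice left out *Hhip*, *Shh*, *Gli2* and *Gli3*. The 3 genes lower in OP at q below 0.2 became 0 under median-of-ratios scaling, TPM, a pseudocount of 0.1, no filter, 1 FPKM in all mice and the replicate block, 5 with sample weights, and 0 to 1 when a mouse was left out. Genes lower in OP at an unadjusted p below 0.05 numbered 477, or 317 with 1 FPKM in all mice, 656 with no filter and 656 with sample weights. When a mouse was left out they numbered 231 to 1104. Those higher numbered 68, or 153 after median-of-ratios scaling, 133 with no filter, 146 with sample weights and 24 to 181 when a mouse was left out.

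Pathway genes lower at an unadjusted p below 0.05 numbered 2, or 5 without the trend, 4 with 1 FPKM in all mice, 8 with sample weights and 0 to 7 when a mouse was left out. With the replicate block, 3 pathway genes, 409 genes in all lower and 66 higher passed that threshold. The log2 fold changes of the 9 Hedgehog genes did not move, which a balanced block requires. Neighbours in the order of levels whose ranges did not overlap numbered 1, or 1 to 2 when a mouse was left out (2 without OP mouse 1 and without OR mouse 3). FPKM rounded to 2 decimals, with unknown depth, limits what *Hhip*, *Gli2* and *Gli3* below 1 FPKM can show. With 3 mice a group errors were wide, and OP mouse 1 received the lowest sample weight, 0.332.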
